A study of Bos taurus with 14 samples.

Results

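Transcripts of cytokines, chemokines and their receptors were measured in mammary gland tissue of 14 Holstein-Friesian cows, with 1 Affymetrix array per cow. The genes were taken by bovine symbol: interleukins and their receptors (IL and a digit), CC and CXC chemokines and receptors (CCL, CCR, CXCL, CXCR), colony-stimulating factors (CSF), the tumour necrosis factor family (TNF) and interferons and their receptors (IFN). This gave 77 genes, each with 1 probe set, among 10740 probe sets named by RefSeq accession, of which 6749 had a symbol. Of the 77, 33 had a mean above the 30th percentile of all probe set means, a log2 intensity of 4.59, and only these were tested. That is 42.9% of the set, against 73.6% of all symbols.

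The cows formed 7 blocks of 2, matched by parity, expected calving and previous milk. In each block 1 cow was drawn at random for the Omega diet, a basal diet with a concentrate containing linseed (n = 7), and 1 for the Control diet, the same basal diet with a concentrate lacking linseed (n = 7). Linseed is rich in alpha-linolenic acid, an n-3 fatty acid. Feeding began 3 weeks ahead of the expected calving and ended 6 weeks after calving, and the sources used here do not give the day on which tissue was taken. The labels gave parity 1 for 4 cows (both cows of blocks 302 and 306) and a higher parity for 10. Both cows of block 304 had parity 2. In the other blocks the labels of the pair differed. They were 6 for Control and 4 for Omega in blocks 303 and 308. In block 305 they were 3 for Control and 4 for Omega, and in block 307 they were 4 and 3. Age is not given, and a previous lactation was recorded for every cow. The study's design text uses parity classes that differ from these labels and holds no class of first parity, so what the label 1 stands for is not settled.

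Cytokines are secreted proteins by which epithelial, stromal and immune cells signal to each other, and chemokines are the cytokines that guide leukocytes along gradients. CXC chemokines with the ELR motif, such as CXCL5 and CXCL8, attract neutrophils, while CCL2 attracts monocytes and CXCL10 and CXCL16 attract activated T cells. In the udder these signals are best known from mastitis, when mammary epithelium and resident macrophages call neutrophils into milk, and the serum amyloid SAA3 is made in the gland as an acute-phase protein. The gland around calving also passes through remodelling in which macrophages and lymphocytes are resident cells of the tissue.

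Control cows 302 and 304, named here by block, stood apart from the other 12 in expression. SAA3 was at 12.80 log2 in the Control cow of block 302 and at 13.82 in that of block 304, while the other 12 cows ran from 6.70 through a median of 7.24 to 10.20. Luminal and secretory epithelium markers were measured strongly in every cow, with a mean over 8 matched genes of 10.42 to 11.08 log2 in the other 12 cows and 11.44 and 11.38 in these 2. Both cows carry the Control label, so the diet differences of named genes are also given without their blocks. Tissue of this kind holds many cell types, and fewer cells of a type cannot be told apart from less RNA per cell.

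Chemokine ligands held the brightest members. CXCL3, a neutrophil-attracting chemokine, had the highest mean of the 77 genes, at 10.49 ± 0.59 log2 (SD, n = 14), and ran from 9.40 in the Control cow of block 306 to 11.36 in the Omega cow of block 305. CXCL14, a chemokine of resting epithelia, was at 9.34 ± 0.69, and CXCL12, the stromal ligand of CXCR4, at 8.36 ± 0.44. CCL3, a macrophage chemokine, was at 8.14 ± 0.36, with all cows between 7.46 and 8.65. Of 21 chemokine ligands 12 were above the filter. The levels of different probe sets depend on their probes and are not a ranking of transcripts, and CXCL3 and CXCL2 belong to a family of closely related genes whose probes can share signal.

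The classical inflammatory cytokines lay near the floor of the scale. IL1A, IL1B, IL6, IL10, TNF, IFNG and CSF2 had means of 3.09, 3.80, 3.19, 3.42, 4.20, 3.18 and 2.88 log2, and the highest single cow among them was at 4.41, for TNF. CXCL8, the main neutrophil chemokine, was at 3.40 ± 0.28 (SD, n = 14) and reached 4.20 in the Omega cow of block 306. IL15, IL1RN, CCL20, CCR7 and CXCL2 had means of 4.04, 4.18, 4.24, 4.19 and 3.07, and none of the 5 passed the filter. IFNAR1, a chain of the type I interferon receptor, was at 3.20 and its partner IFNAR2 at 6.06. In all 44 genes were at or below the filter by their mean, and 37 of these were not above it in any cow. So close to the floor small differences may not be detectable, and a low value does not show that the gene is silent.

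Of 19 interleukins only 3 were above the filter, IL16, IL18 and IL33. IL33, an alarmin released by damaged epithelium and endothelium, was the most variable of the 33 tested members, with an SD of 0.91 log2 and a range from 5.64 to 8.77. Its highest values were in the Omega cows of blocks 307 and 305, at 8.77 and 8.50. The median SD over 14 cows was 0.42 among the 33 members and 0.23 among all 7518 probe sets tested. Over the 12 cows without the 2 Control cows named above it was 0.23 and 0.19.

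All 5 receptors of the TNF family were above the filter, led by TNFRSF1A, the main TNF receptor of most cells, at 8.37 ± 0.23 (SD, n = 14), and TNFRSF4, a costimulatory receptor of T cells, at 7.61 ± 0.30. None of the 5 TNF-family ligands and TNF-induced genes was. TNFRSF1B was at 5.09 ± 0.21. Among interleukin receptors 5 of 11 passed, with IL27RA at 7.18 ± 0.56 and the shared chain of T-cell cytokine receptors, IL2RG, at 5.22 ± 0.18. The colony-stimulating factors CSF1 and CSF3 were at 5.81 ± 0.31 and 5.82 ± 0.22, and CSF1R, the macrophage receptor of CSF1, at 5.80 ± 0.26. Just inside the filter lay CCL4 at 4.67 and IL6R at 4.66, and just outside it CCL21 and IL4R, both at 4.57.

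**Figure D1:**
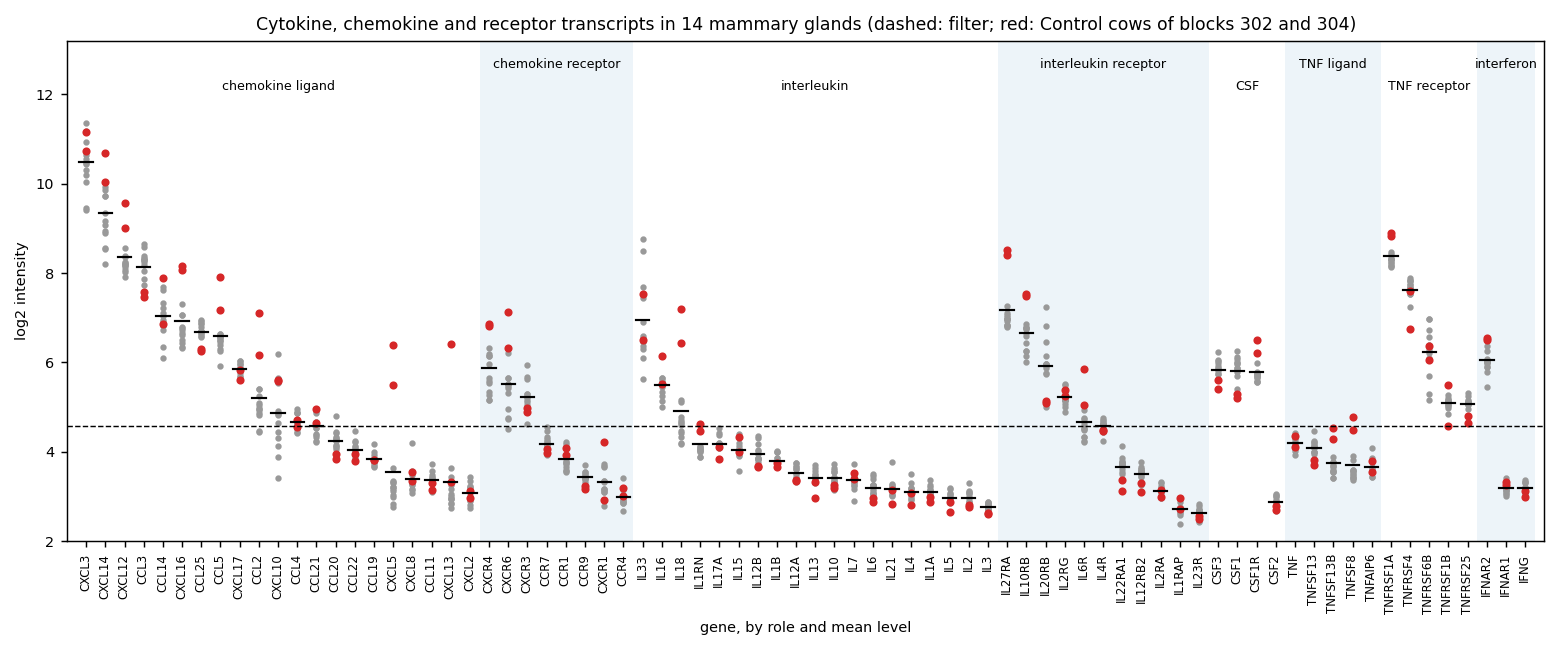
Log2 intensity of the genes of the set reported here (vertical axis) by role and mean level (horizontal axis). Each grey point is a cow, red points are the Control cows of blocks 302 and 304, black bars are means over 14 cows and the dashed line is the filter at 4.59. CXCL3 lies highest at 10.49. CXCL5 and IL18 show both red points far above the rest of their column, and CXCL13 only that of block 304.

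In the Control cows of blocks 302 and 304, 14 of the 33 tested members were above all the other 12 cows in both, 5 were below them in both, and 14 were neither. Over all 7518 probe sets tested the shares were 21.7% above and 15.5% below. Among the members they were 42.4% and 15.2%. Because expression itself set these cows apart, these counts describe 2 arrays and carry no test. IL6R passed the filter only through these 2 cows, and without it 13 of 32 members were above. IL18 would have passed narrowly without them, with a mean of 4.61 log2 over the other 12 cows against the filter at 4.59.

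The widest gaps among tested members were those of IL18, IL27RA, CXCL16 and CCL2, at 1.27, 1.15, 0.76 and 0.76 log2. IL18, an inflammasome-processed cytokine, was at 6.44 and 7.20 log2 in the Control cows of blocks 302 and 304, against 4.18 to 5.17 with a median of 4.62 in the other 12. CCL2, the monocyte chemokine, was at 6.17 and 7.11 against 4.45 to 5.40 (median 4.97). CCL5, made by T cells and natural killer cells, was at 7.17 and 7.92 against 5.93 to 6.63 (median 6.51). The higher of these values was in the cow of block 304 for all 3 genes. IL27RA, a receptor chain of lymphocytes, was at 8.41 and 8.52 against 6.80 to 7.26 (median 6.97), and its probe set has the same values as that of an unnamed accession. IL10RB, a chain shared by receptors of the interleukin 10 family, was at 7.49 and 7.53 against 6.01 to 6.85 (median 6.63). TNFRSF1A was at 8.89 and 8.82 against 8.14 to 8.48 (median 8.31).

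Some ligands stood high together with their receptor in these 2 cows. The pairs were not set beforehand or counted over the whole set. CXCL12 was at 9.01 and 9.58 log2 against at most 8.57 in the other 12, and its receptor CXCR4 at 6.85 and 6.82 against at most 6.33. The probe set of CXCL12 also shares its values with an unnamed accession. CXCL16 was at 8.15 and 8.07 against at most 7.31, and its receptor CXCR6 at 6.32 and 7.12 against at most 6.22. CSF1 went the other way from its receptor: CSF1 was at 5.22 and 5.29, below the other 12 cows at 5.40 to 6.25, while CSF1R was at 6.20 and 6.49, above their 5.55 to 5.98. IL6, under the filter, was also below, at 2.96 and 2.88 against 3.06 to 3.51. Its receptor IL6R was above, at 5.06 and 5.86 against at most 4.93.

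The 5 tested members below the other 12 cows in both were CCL25, CCL3, TNFRSF25, CSF1 and CSF3. CCL25, a chemokine of thymus and gut, was at 6.26 and 6.29 against 6.58 to 6.95 in the other 12, and CCL3 at 7.46 and 7.58 against 7.74 to 8.65. The gap of CSF3 was 0.015 log2, against an SD of 0.18 over the other 12 cows. With no filter 17 of the 77 members were above in both, against 17.2% of all probe sets, and 12 were below, against 18.1%. Of the members under the filter by their mean, CXCL5, an ELR chemokine of epithelial cells, was at 5.50 and 6.39 while the other 12 ran from 2.77 to 3.63, the widest gap of the 77 genes at 1.87 log2. TNFSF8 and TNFSF13B, the latter a survival factor of B cells, were also above the other 12 in both. CXCL13, the chemokine of B-cell follicles, was at 6.41 in the Control cow of block 304 alone and at 2.75 to 3.65 in all the others.

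Macrophage and T-cell markers were the leukocyte lists whose mean was above the other 12 in both of these cows. Of 9 tested macrophage markers, 7 were above the other 12 cows in both, among them C1QA and AIF1, and 1, MSR1, was below. The mean over 10 matched macrophage markers was 6.41 and 6.49 log2 in these cows, 5.51 to 6.03 in the other 12, 5.64 to 6.03 in Omega and 5.51 to 6.49 in Control cows. Of 8 tested T-cell markers 4 were above in both, CD8A, CD3G, CD247 and CD3D, while CD8B, CD2, CD3E and CD5 were not. The T-cell list mean was 5.94 and 6.28 against 5.47 to 5.84. Among neutrophil markers only 4 of 13 matched genes passed the filter, and 8 were not above it in any cow. S100A12 and LTF were above in both, LTF at 14.20 and 14.37 log2 against 8.69 to 12.90, and LTF is also made by mammary epithelium. The neutrophil list mean was 4.80 in the Control cow of block 302, within the 4.49 to 4.85 of the other 12, and 5.31 in that of block 304. The natural killer cell list mean, over 4 genes, was 4.58 and 4.76, within their 4.41 to 4.85. The mean over 7 matched B and plasma cell markers was 4.86 in the Control cow of block 302, within the 4.69 to 5.01 of the other 12, and 5.77 in that of block 304, where CXCL13 was high. Of 7 tested fibroblast markers 6 were above in both, and of 7 tested luminal markers 4, among them the keratins KRT7 and KRT8. Of 5 tested basal markers 2 were above. The shift was not particular to leukocyte lists. The fibroblast list mean was 10.43 and 10.21 against 9.05 to 9.64, and the basal one 8.78 and 8.58 against 7.98 to 8.43. The endothelium mean was 6.34 and 6.03 against 5.82 to 6.18. The adipocyte mean, with 0 genes tested, was 3.35 and 3.26 against 3.42 to 3.64. Over all 7518 tested probe sets 21.7% were above in both and 15.5% below. The part of cell composition in the cytokine values was not tested.

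**Figure D2:**
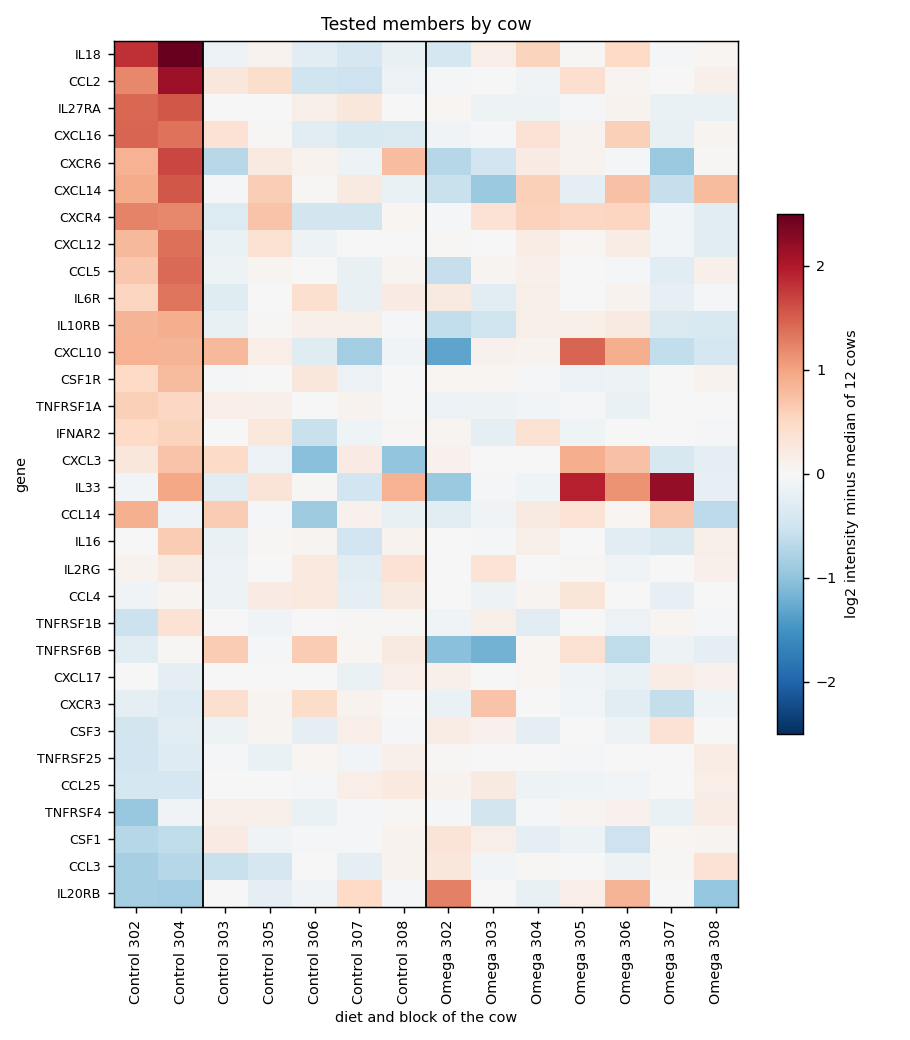
Log2 intensity of the tested members reported here in each cow, minus the gene's median over the 12 cows other than the Control cows of blocks 302 and 304 (colour, truncated at 2.5 either way). Columns are cows by diet and block, and rows are ordered by the mean of the 2 leftmost columns. IL18 and CCL2 head the rows, with 7.20 and 7.11 log2 in the Control cow of block 304, and CCL3 and IL20RB end them.

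The diet comparison asked how linseed altered the gland, and it was fitted with limma with the block as a fixed effect. No cytokine, chemokine or receptor passed. Of the 33 tested members 0 had an adjusted p under 0.05 (smallest 0.447), over a background of 0.0% of 7518 probe sets. At an unadjusted p under 0.05 there were 6, 1 higher and 5 lower in Omega cows, which is 18.2% of the members where 11.0% of all probe sets reached it. The shares of all probe sets were 3.78% higher and 7.22% lower. The median difference, Omega minus Control, was -0.08 log2 over the members and -0.03 over all probe sets. Without block 302 the 6 became 3 (background 7.91%), and without block 304 also 3 (background 5.77%). Without both there were 2, CCL3 and IL18, over a background of 6.57%, and the median was 0.0025, with 17 members higher and 16 lower.

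CCL3 was the member with the smallest p and the 1 of the 6 that was higher in Omega cows. It ran from 8.18 through a median of 8.32 to 8.65 log2 in Omega cows and from 7.46 through 7.88 to 8.38 in Control cows, so the groups overlapped. The difference was 0.46 (95% confidence interval 0.15 to 0.77), or 1.38-fold, in 6 of 7 blocks, with a limma p of 0.00765 and an adjusted p of 0.447. An exact test that flips the sign of each block, and that cannot go below p = 0.0156 with 7 blocks, gave p = 0.0313. Without blocks 302 and 304 the difference was 0.27 (0.02 to 0.52), higher in 4 of 5 blocks.

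TNFRSF1A was lower in Omega cows in 7 of 7 blocks, and it was the only tested member whose diet groups did not overlap, which held for 0.106% of all tested probe sets with Omega lower and 0.0798% with Omega higher. It ran from 8.14 through 8.23 to 8.315 log2 in Omega and from 8.322 through 8.43 to 8.89 in Control cows, so the groups touched. The difference was -0.30 (-0.53 to -0.06), with a limma adjusted p of 0.447 and an exact sign-flip p of 0.0156. In block 308 the pair differed by -0.007 and in block 302 by -0.73. Without blocks 302 and 304 the difference was -0.15 (-0.35 to 0.04), still lower in each of the 5 blocks.

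IL27RA was also lower in 7 of 7 blocks, at 6.80 to 7.05 log2 (median 6.85) in Omega and 6.96 to 8.52 (median 7.11) in Control cows. Its difference was -0.56 (-1.05 to -0.07), which was -0.17 (-0.38 to 0.05) without blocks 302 and 304. Of all tested probe sets 2.27% were lower in every block and 1.29% higher, against 2 and 0 of the 33 members. CXCR6, the receptor of CXCL16 on memory T cells, differed by -0.67 (-1.16 to -0.17), in 6 of 7 blocks, with 4.51 to 5.64 in Omega and 4.76 to 7.12 in Control cows. IL10RB differed by -0.45 (-0.86 to -0.05), in 5 of 7 blocks. Without blocks 302 and 304 these became -0.32 and -0.19, each with an interval that included 0. All had limma adjusted p = 0.447.

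TNFRSF6B, a soluble decoy receptor of TNF ligands, was the 1 member of the 6 that was neither above nor below the other 12 cows in both Control cows that stood apart. It ran from 5.16 through 6.10 to 6.72 log2 in Omega and from 6.06 through 6.39 to 6.98 in Control cows, with overlap. The difference was -0.58 (-1.13 to -0.03) over 7 blocks and -0.66 (-1.32 to 0.01) without blocks 302 and 304, with limma adjusted p of 0.450 over 7 blocks. Its widest pairs were those of blocks 303 and 306, at -1.82 and -1.26. IL6R and CXCL12 followed at -0.29 (-0.61 to 0.03) and -0.31 (-0.71 to 0.08), with limma adjusted p of 0.465 and 0.492, and without the 2 blocks they were at -0.11 and -0.04. The median 95% interval of a member reached 0.39 log2, or 1.31-fold, to either side, so differences of that size could be missed. That interval is not adjusted for the number of probe sets. Larger differences were also not called, such as CXCR6 at -0.67 (limma adjusted p = 0.447).

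**Figure D3:**
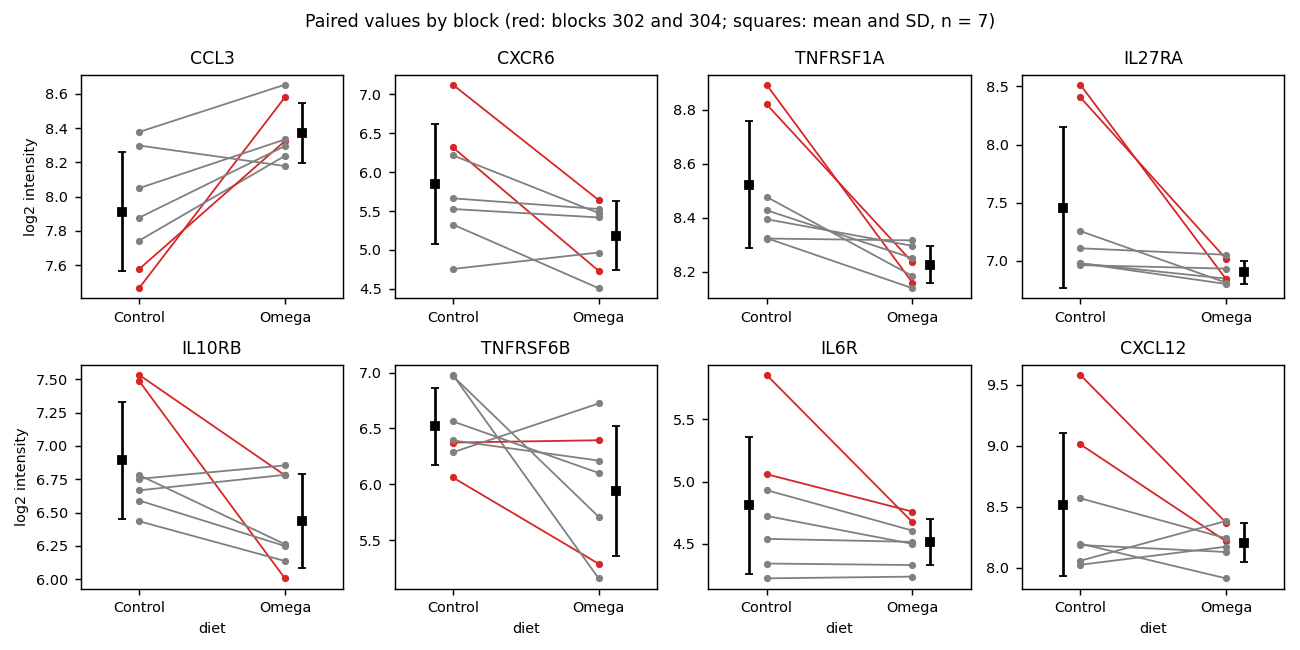
Log2 intensity (vertical axis) of the 8 tested members with the smallest diet p in Control and Omega cows (horizontal axis). Lines join the cows of a block, red for blocks 302 and 304, and squares with bars are means and SD (n = 7). For TNFRSF1A the Omega cows end at 8.315 and the Control cows begin at 8.322, while the red Control points set much of the spread of IL27RA, IL10RB and CXCL12.

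For several inflammatory members the sign depended on blocks 302 and 304. IL18 differed by -0.38 (-1.23 to 0.48) over 7 blocks and by 0.33 (0.05 to 0.61) over the other 5, with adjusted p of 0.644 and 0.734 in limma. CCL2 went from -0.34 to 0.22, CXCR4 from -0.05 to 0.31 and CXCL16 from -0.20 to 0.23. IL33 was at 0.37 (-0.65 to 1.39) and then at 0.91, and CXCL14 at -0.48 (-1.12 to 0.17) and then at -0.18. None of these passed in either fit. IL18, CCL2, CXCR4 and CXCL16 were above the other 12 in both left-out Control cows, which by itself lowers their difference over 7 blocks. The blocks were picked by expression, so the intervals and p-values over 5 blocks depend on that choice. The share of sign changes over all probe sets is not given here.

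Among the 44 members under the filter, a fit over all 10740 probe sets gave 3 with an unadjusted p under 0.05, IL6, IL13 and CXCL5, where 10.5% of all probe sets reached it. The smallest limma adjusted p among them was 0.468. IL6, the main inducer of acute-phase proteins in liver, was higher in Omega cows in 7 of 7 blocks by 0.30 log2 (0.13 to 0.46). Its groups did not overlap, at 3.26 to 3.51 in Omega and 2.88 to 3.16 in Control cows, and all 14 cows lay far under the filter. Without the filter 0.102% of all probe sets had Omega cows above Control cows with no overlap, and 1.69% were higher in every block. Without blocks 302 and 304 the IL6 difference was 0.23 (0.05 to 0.41). CXCL5 differed by -0.98 (-1.96 to -0.01), with 2.77 to 3.32 in Omega and 3.13 to 6.39 in Control cows. The Control cows of blocks 302 and 304 held its 2 highest values, and without these blocks the difference was -0.17 (-0.44 to 0.09). IL13, a cytokine of type 2 T helper cells, was also higher in 7 of 7 blocks, by 0.20 (0.16 without the 2 blocks), within 2.97 to 3.72. Values so near the floor of the scale do not show that the transcript was present.

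**Figure D4:**
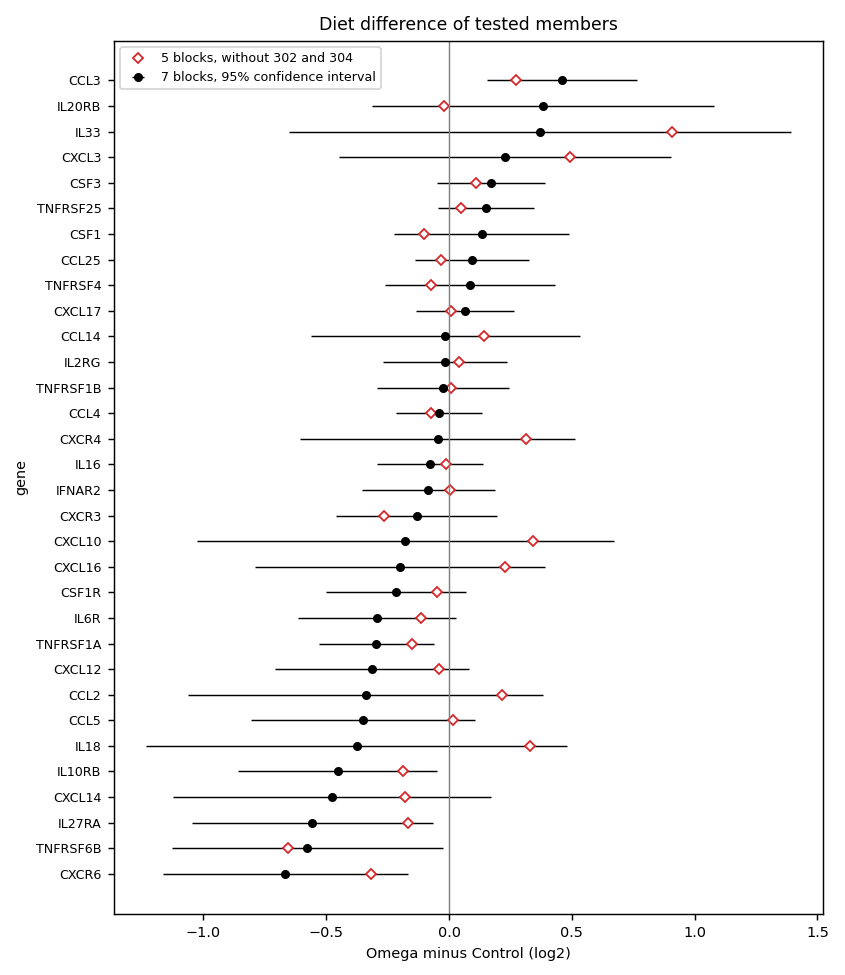
Omega minus Control difference in log2 (horizontal axis) of the tested members reported here (vertical axis). Black points with bars are limma estimates with 95% confidence intervals over 7 blocks, and red diamonds are the estimates over the 5 blocks without 302 and 304. CCL3 is highest at 0.46 and CXCR6 lowest at -0.67, and IL18, CCL2 and CXCR4 have their diamonds on the other side of 0.

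Cows with a parity label of 1 (n = 4) were compared with the other 10 in limma, with diet as a fixed and block as a random effect. The 4 cows came from blocks 302 and 306 only. Their previous milk over 100 days was labelled 2110 to 2771, against 3635 to 4841 in the other 10. Parity label and previous milk therefore cannot be told apart here. No member passed, with 0 of 33 at an adjusted p under 0.05 (smallest 0.983, background 0.0%) and 0 at an unadjusted p under 0.05, where 2.19% of all probe sets reached it, 1.26% higher and 0.931% lower. The median difference, parity 1 minus higher, was -0.02 log2 over the members and 0.02 over all probe sets, and the median interval reached 0.48 log2 to either side. TNFRSF1B, the TNF receptor of immune cells, had the smallest p: it was at 4.59 to 5.13 in parity 1 cows and at 4.85 to 5.49 (median 5.15) in the others, a difference of -0.22 (-0.48 to 0.04). IL20RB, a receptor chain of epithelial cells, differed by 0.46 (-0.23 to 1.16), TNFRSF4 by -0.23 (-0.59 to 0.12), CSF3 by -0.16 and TNFRSF6B by -0.31. IL27RA differed by 0.30, IL6R by 0.24 and CCL25 by -0.13. Without block 302 TNFRSF1B was at -0.10, TNFRSF4 at -0.01 and CCL25 at -0.06, and TNFRSF6B and IL27RA were near 0, at 0.02 and -0.01. Without the 2 Control cows that stood apart TNFRSF1B was at -0.06, TNFRSF4 at -0.01, CSF3 at -0.09, IL27RA at 0.14 and CCL25 at -0.06, while IL20RB was at 0.77. Leaving out block 304 brought the count at an unadjusted p under 0.05 to 4, IL6R, IL27RA, TNFRSF1B and CSF3, over a background of 14.7%. Parity as a linear covariate gave 7 members over a background of 23.2%, and leaving out both Control cows that stood apart gave 2, IL20RB and IL6R, over 2.11%.

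Whether the diet difference varied with parity was tested as an interaction with the block as a fixed effect. Of 33 members 0 had an adjusted p under 0.05 in limma (smallest 1.00, background 0.0%), and 2 had an unadjusted p under 0.05, both positive, over a background of 1.66% (0.865% positive and 0.798% negative). For IL20RB, Omega minus Control was 2.09 and 0.93 log2 in blocks 302 and 306 and -0.07 on average in the other 5 blocks, where it ran from -0.92 to 0.68. The difference between the classes was 1.58 (0.48 to 2.67). For TNFRSF4 the values were 0.92 and 0.29 in the parity 1 blocks and -0.12 on average in the others, a difference of 0.72 (0.12 to 1.32). CSF3 had the third smallest p, with 0.29 (-0.18 to 0.76). These rest on 2 blocks of parity 1 cows, and block 302 holds a Control cow that stood apart. Without block 302 IL20RB was at 1.00 and TNFRSF4 at 0.40, with limma unadjusted p of 0.115 and 0.206, and CSF3 was at 0.02. Without block 306, which likewise leaves 1 block of parity 1 cows, the 2 members became 11, over a background of 20.1%.

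The last comparison asked which members followed SAA3 from cow to cow. Because 2 cows form a separate cluster in SAA3, correlations were computed over the other 12 only, for each of 7517 probe sets, with a two-sided permutation test. SAA3 was permuted freely over these cows with no term for diet or block, so the pairing was not kept. CXCL10 and CXCL16 had the smallest p, but no member passed: 0 of 33 had an adjusted p under 0.05 (smallest 0.240, background 0.0%). At an unadjusted p under 0.05 there were 7, 5 positive and 2 negative, or 21.2% of the members, where 10.8% of all probe sets reached it (6.48% positive and 4.31% negative). The median r was 0.16 over the members and 0.02 over all probe sets.

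CXCL10, the interferon-induced chemokine of T cells, was closest to SAA3, with Pearson r = 0.79 (permutation p = 0.00168, adjusted 0.240) and Spearman rho = 0.82 (permutation p = 0.00181, adjusted 0.326) over 12 cows. It ran from 3.42 log2 in the Omega cow of block 302 to 6.19 in the Omega cow of block 305. Its mean over these 12 cows was 4.74, close to the filter at 4.59, and several of them lay under the filter. Without the 2 cows farthest from the median of SAA3, the Omega cows of blocks 306 and 305, r was 0.66. In the Control cows of blocks 302 and 304 CXCL10 was at 5.62 and 5.59, within the range of the other 12, although SAA3 was highest there.

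CXCL16 had r = 0.72 (permutation p = 0.00764, adjusted 0.326) and rho = 0.79 (permutation p = 0.00350, adjusted 0.329), and r was 0.55 without the 2 farthest cows. CCL2 had r = 0.64 (permutation p = 0.0257, adjusted 0.402) and rho = 0.82 (permutation p = 0.00213, adjusted 0.326), and its r was 0.83 without those cows. Both genes were above the other 12 in both Control cows with the highest SAA3.

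For CXCL3 and CSF1 the relation rested on few cows. CXCL3 had r = 0.65 (permutation p = 0.0226, adjusted 0.396) and rho = 0.42 (permutation p = 0.176, adjusted 0.692), and CSF1 had r = -0.66 (permutation p = 0.0200, adjusted 0.391) and rho = -0.50 (permutation p = 0.0991, adjusted 0.633). Without the 2 farthest cows these became 0.29 and -0.13. CXCR4 had r = 0.59 (permutation p = 0.0399, adjusted 0.438) and rho = 0.61 (permutation p = 0.0411, adjusted 0.542). CCL25 had r = -0.57 (permutation p = 0.0494, adjusted 0.460) and rho = -0.59 (permutation p = 0.0485, adjusted 0.567), and IL18 had r = 0.56 (permutation p = 0.0578, adjusted 0.470) and rho = 0.67 (permutation p = 0.0212, adjusted 0.478). Their r without the 2 farthest cows was 0.44, -0.41 and 0.37. Leaving out the Omega cow of block 306 alone brought the 7 members to 2 (background 5.07%), and leaving out that of block 305 brought them to 4 (background 12.7%). Without both there were 3 (background 7.81%), CXCL10, CCL2 and CCL3, of which CCL3 was not among the 7.

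Among the genes outside the set, those most like SAA3 by Pearson r over the same 12 cows were CHI3L1, a chitinase-like glycoprotein, at 0.91, ZMAT2 at 0.89, the complement factor CFI at 0.89, FOLH1 at 0.89 and PAFAH1B3 at 0.88. None had an adjusted permutation p under 0.05 (smallest 0.185). No cytokine, chemokine or receptor reached the r of these 5. The 5 were picked as the highest of a far larger group, so this says little about the members.

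**Figure D5:**
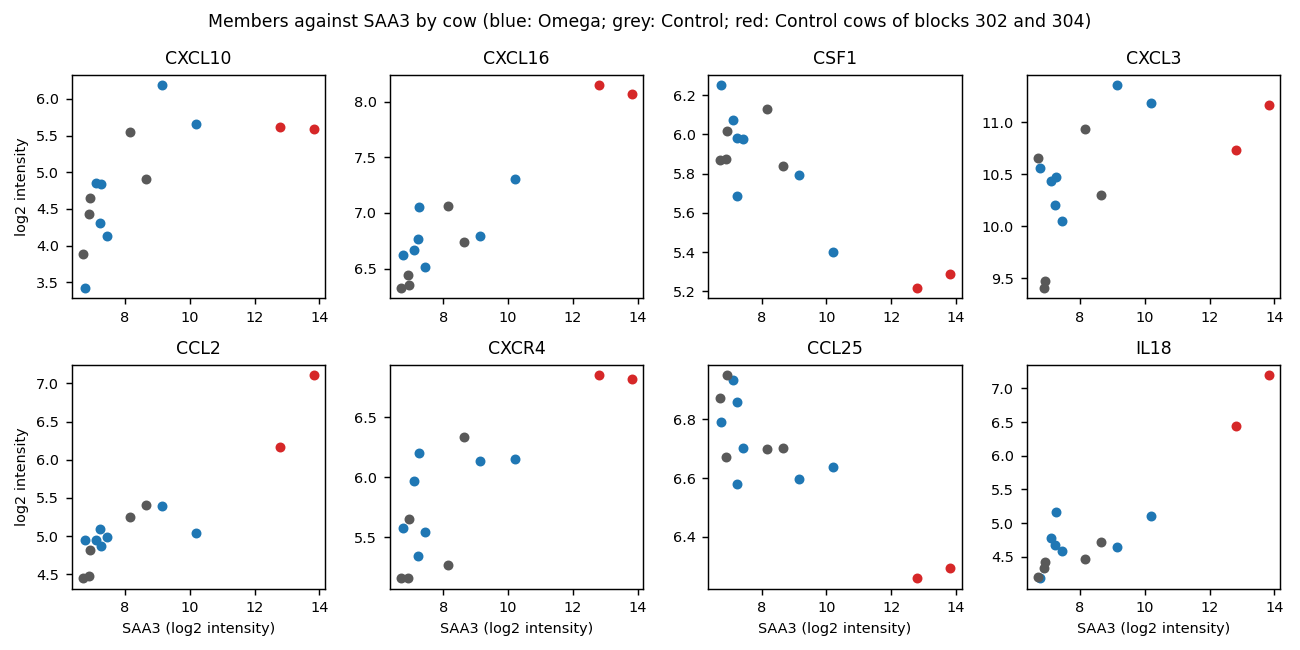
Log2 intensity of the 8 members with the smallest permutation p (vertical axis) against SAA3 (horizontal axis) in 14 cows. Blue points are Omega cows, grey points Control cows and red points the Control cows of blocks 302 and 304, which were left out of the correlations. CXCL10 levels off at 5.62 and 5.59 in the red points, while CCL2 and IL18 reach 7.11 and 7.20 there.

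Genes that carry cytokine signals inside the cell were read from lists, with the members themselves left out. In the JAK-STAT and SOCS list 8 of 10 matched genes were tested, and 0 passed for diet or parity in limma. At an unadjusted p under 0.05 for diet 2 of the 8 were higher and 0 lower, where 3.78% of all probe sets were higher and 7.22% lower: STAT5B, a transcription factor activated downstream of the prolactin and growth hormone receptors, at 0.35 log2 (0.08 to 0.61), and PIAS1, a SUMO ligase, at 0.21. Without blocks 302 and 304 they were at 0.23 (-0.04 to 0.49) and 0.25. STAT3, the main factor downstream of the interleukin 6 family, differed by -0.29 (-0.74 to 0.16), or 0.01 without those blocks, and it was at 8.52 and 8.83 in the Control cows of blocks 302 and 304 against 7.24 to 8.14 in the other 12. In the NF-kappaB list 21 of 25 matched genes were tested, and again 0 passed. For diet 1 of the 21 was higher and 3 were lower at an unadjusted p under 0.05, over the same background: the kinase CHUK at -0.33 (-0.55 to -0.10), the kinase adaptor TAB1 at -0.19, the signalling ligase TRAF6 at -0.27 and the inhibitor NFKBIB, the higher one, at 0.25 (0.00 to 0.49). Without blocks 302 and 304 these 4 genes were at -0.28, -0.18, -0.28 and 0.32. For parity 0 JAK-STAT genes and 1 NF-kappaB gene, IRAK4, at 0.18 higher in parity 1, had an unadjusted p under 0.05, where 2.19% of all probe sets did. Of the NF-kappaB list 6 of 21 genes were above the other 12 in both Control cows that stood apart, and of the JAK-STAT list 1 of 8 was above and 1 below, against 21.7% above and 15.5% below over all tested probe sets.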

How the data were processed

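Biotin-labelled cRNA from Trizol-extracted mammary RNA of 14 cows was hybridised to Affymetrix arrays, per the labels' protocols. The authors deposited log2 intensities, and the submitters' processing notes name RMA and GCRMA, with no versions. The sources used here do not say which of them made these log2 values. Such summaries compress differences between dim transcripts. Values ran from 2.26 to 14.8, and array medians from 5.70 to 5.76. No batch or scan date was used, and the number of arrays limits the precision.

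The 112 control probe sets were left out. Unversioned accessions were matched to the RefSeq table of ARS-UCD2.0, which named 6749 of 10740 probe sets, and 0 of 3776 predicted accessions. CCL28, CSF3R, IL6ST, TNFSF11, TNFRSF11B and IFNGR1 are not analysed here. No symbol of the set had more than 1 row. The 7518 probe sets above the 30th percentile were tested with limma 3.58.1 in R 4.3.3 (lmFit, eBayes), with Benjamini-Hochberg adjustment over all of them at 0.05. For parity, the block correlation was 0.037. Pairing came from the stated blocks. The 2 cows of a block deviated from their diet means with a correlation of -0.47 to 0.32. Correlations with SAA3 used 100000 permutations in Python 3.11.15 with numpy 2.4.6. The fits were tested on simulated data.

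Genes named were the 8 members with the smallest p for diet, parity and SAA3, the 3 for the interaction, the 6 brightest, those with the widest gaps in the 2 Control cows, 3 per pathway list by diet p, and a set list of known cytokines. Others, such as CXCL13, IL13 and IRAK4, were picked with their values in view. The tests and counts include 1 member whose own values are not reported here. The members and lists were chosen with earlier results of these data known.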

Additional observations from a re-analysis of the deposited data

Results flagged for a closer look

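In 40 genes above the filter in at least 1 cow, each diet group of 7 was examined for a cow far from the rest, by the gap to its nearest neighbour over the group's range (limit 0.568). Of 80 groups 4 had such a cow, and chance gives about 1 in 20. A gene above the filter in few cows entered through its high values, so that rate does not hold for it. CXCL13 is such a gene, as it was above the filter only in the cow flagged. It was at 6.41 log2 in the Control cow of block 304, with the next Control cow at 3.44. TNFRSF4 was at 6.76 in the Control cow of block 302, with the next at 7.53. TNFRSF25, a death-domain receptor of T cells, was at 5.31 in the Omega cow of block 308, with the next at 5.14, and CCL2 was at 5.40 in the Omega cow of block 305, with the next at 5.10. No cause was tested.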

How the results depend on the processing

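No member had an adjusted p under 0.05 in any setting run, for diet, parity, the interaction or SAA3. For diet, the 6 members at an unadjusted p under 0.05 were 3 with array weights, 2 without blocks 302 and 304, and 3 to 7 with each block left out in turn, the lowest without block 302 or 304. The paired design was kept as stated, and with no replicate block there were 6. They were 5 by the exact sign-flip test. With no filter they were 9 of 77, where 10.5% of all probe sets reached an unadjusted p under 0.05 in limma. For IL6, IL13 and CXCL5, under the filter, the fit with no filter and without both blocks, chosen after seeing the data, kept the sign. The median diet difference, -0.08, was 0.0098 with no filter and 0.0025 without blocks 302 and 304. For parity, the 0 members were 7 with parity as a linear covariate (background 23.2%), 2 without the Control cows of blocks 302 and 304, and 0 to 4 with each block left out. With each block left out, the parity difference of TNFRSF6B ran from -0.64 to 0.021 log2 and that of IL27RA from -0.013 to 0.62, with the sign reversed without block 302 in both. The 2 members of the interaction were 2 to 11 with each block left out. For SAA3, the count of 7 became 3 without the 2 farthest cows, 12 of 77 with no filter, and 2 to 8 with each cow left out. Counts given without a share over all probe sets show only how the number moved. They are not a result about the members. Those below the other 12 in both Control cows were 12 of 77 with no filter in place of 5. A filter at the 50th percentile left 21 of 33 members. The mean over rows was not run, as no symbol had several. The cause was not tested. Dim signal limits the 44 members under the filter.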
